A study of Mus musculus with 4 samples.

Results

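The Slc25a genes encode carriers of the inner mitochondrial membrane (and a few of other membranes) that exchange nucleotides, phosphate, carboxylic acids, amino acids, carnitine esters, cofactors and iron between the cytosol and the matrix. They were followed here across 4 arrays of normal skeletal muscle. Members were the probe sets that the platform annotation assigns to exactly 1 gene with a symbol beginning in Slc25a, and the probe set with the highest mean stood for each gene. This gave 33 genes from 65 probe sets, out of 12393 genes in all, and other genes of the family were not analysed here. Every sample was bulk muscle from wild type mice of mixed 129S4/SvJae and C57BL/6 background, with no treatment, age, muscle or extraction route given for any one sample. The labels put them in 1 group, and their titles, nm7, nm8, skm4 and skm5, carry 2 prefixes whose meaning is not given. The only contrast open was therefore skm minus nm, with 2 arrays each, which is a difference between titles and not between study groups. Separate animals are not named in the labels, and a p-value here reflects the spread of these 4 arrays alone, part of which may be technical. Sarcomas that the series also covers were not analysed here.

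Carriers of this family share a fold of 6 membrane-spanning helices in 3 repeats and open in turn to the cytosol and to the matrix. In muscle, ATP made in the matrix leaves through the ADP/ATP translocases, the phosphate for its synthesis enters through the phosphate carrier, and reducing equivalents from glycolysis enter through the malate-aspartate shuttle. Fatty acids enter as carnitine esters. A calcium-regulated branch, the ATP-Mg and phosphate carriers, sets the total pool of adenine nucleotides in the matrix.

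One member, Slc25a25, passed the test between the prefixes, and the sequence before each of its transcription starts is shown for that reason. RefSeq promoter windows (GRCm38.p6) were held for 26 of the 33 genes, in 35 windows. The 250 bases before each start were searched on both strands for the E-box CACGTG, the D-box forms TTATGTAA and TTATGCAA, the cyclic AMP response element (CRE) TGACGTCA, the ERR element TCAAGGTCA and the 10-base palindromic NRF1 site. No matches overlapped each other. Slc25a25 has 3 annotated starts on chromosome 2, given 5′ to 3′ on the minus strand with any match in capitals.
Slc25a25 upstream start, chr2:32451471-32451720, minus strand: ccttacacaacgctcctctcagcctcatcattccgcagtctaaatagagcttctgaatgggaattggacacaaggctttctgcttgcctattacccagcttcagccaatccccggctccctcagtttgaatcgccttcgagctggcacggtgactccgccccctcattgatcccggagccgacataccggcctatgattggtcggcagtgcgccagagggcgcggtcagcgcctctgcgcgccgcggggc
Slc25a25 middle start, chr2:32431152-32431401, minus strand: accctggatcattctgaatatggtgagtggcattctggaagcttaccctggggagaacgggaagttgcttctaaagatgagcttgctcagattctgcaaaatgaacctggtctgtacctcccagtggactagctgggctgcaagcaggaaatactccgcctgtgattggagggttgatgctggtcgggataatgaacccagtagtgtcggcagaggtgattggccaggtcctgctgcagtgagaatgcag
Slc25a25 downstream start, chr2:32424067-32424316, minus strand: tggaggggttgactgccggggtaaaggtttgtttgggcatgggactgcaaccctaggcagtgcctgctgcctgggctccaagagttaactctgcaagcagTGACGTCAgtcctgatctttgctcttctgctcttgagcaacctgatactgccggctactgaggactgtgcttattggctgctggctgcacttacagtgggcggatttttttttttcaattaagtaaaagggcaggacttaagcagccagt
The window of the downstream start held 1 CRE, beginning at position -150 from the start, and the windows of the other starts held none of the motifs. A CRE stood in 1.55% of 32851 windows of all genes and in 2 of the 35 member windows (5.71%), those of Slc25a25 and Slc25a36. The E-box, the element bound by the clock's activators among other factors, stood in 6 of the 35 member windows (17.1%), of 5 genes, against 6.02% of all windows. No member window held either D-box form, the ERR element or the NRF1 site, which stood in 0.819%, 0.694%, 0.387% and 0.782% of all windows. The matches outside Slc25a25 are shown with up to 10 bases on each side, to set them beside the values below.
Slc25a36 CRE, chr9:97111185-97111212, minus strand: gcgaacctcgTGACGTCAcgcggcctaa
Slc25a36 E-box, chr9:97111213-97111238, minus strand: cctgggcgatCACGTGaaagaggcgt
Slc25a33 E-box, chr4:149774268-149774285, minus strand: cggcctccgcCACGTGac
Slc25a15 E-box, chr8:22398339-22398364, minus strand: ccctgccgcaCACGTGccgcggctcc
Slc25a13 E-box, chr6:6217283-6217308, minus strand: cagtctgagtCACGTGtcctggcccc
Slc25a14 E-box, chrX:48623384-48623409, plus strand: cacctccctcCACGTGacgccccacc
These are matches of letters and not measured sites, and the genes that hold an E-box lay on both sides of 0, with differences that ran from -0.61 in Slc25a36 to 0.46 in Slc25a33. The site in Slc25a14 was counted for 2 starts.

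Where 4 values of a gene follow each other, they are those of nm7, nm8, skm4 and skm5. Values throughout are log2 expression values from robust multi-array averaging (RMA), so a difference of 1 is 2-fold. Levels of different probe sets were not compared with each other. The arrays had medians of 7.26 to 7.30. The 6 muscle markers, such as Acta1 and Ckm, read between 13.73 and 14.70 on all arrays, as the tissue label says. Some control probe sets moved with the prefix. Those of 18S ribosomal RNA differed by -2.24, -1.43 and -1.28. The 5′ minus 3′ difference of beta-actin was -0.62 and -0.56 in nm and 0.45 and 0.44 in skm. That of Gapdh moved less, from -0.21 and -0.25 in nm to -0.04 and -0.02 in skm. Of markers of other cells, the summed lymphocyte level (5 of 6 markers measured) was 11.17 to 11.30 in nm and 8.81 to 10.09 in skm. Differences of its markers ran from -2.49 in Cd3g to -0.38 in Cd3e. The sum includes Ptprc, which other leukocytes also express, at 10.43, 10.54, 7.28 and 9.33. The adipocyte sum (4 of 6) was 14.36 to 14.37 in nm and 13.95 to 14.28 in skm, and the erythroid sum (3 of 7) 8.42 to 8.55 and 9.02 to 9.92. The erythroid sum rested mostly on Alas2, at 8.28, 8.10, 8.77 and 9.79. Slc4a1 read 5.40 to 5.90 and Hba-a1 4.24 to 4.81. The keratinocyte sum (6 of 6) was 11.03 in skm5 and 9.24 to 9.54 on the other 3 arrays, and macrophage markers (5 of 5) summed to 12.29 to 12.31 in nm and 11.64 to 12.12 in skm. The endothelial sum (5 of 5) was 11.66 to 11.69 in nm and 11.96 to 12.05 in skm, with Pecam1 at 1.31, Ramp2 at 0.99 and Kdr at -0.58 for skm minus nm. Brown fat markers (4 of 4) summed to 14.32 to 14.34 in nm and 14.18 to 14.26 in skm. Their differences were 0.19 in Ucp1, -0.72 in Cidea, 0.25 in Elovl3 and 0.04 in Cox8b. The part of these shifts in any result below was not tested. In bulk tissue, fewer cells of a type and less RNA per cell cannot be told apart.

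Across the family, carriers went both ways between the prefixes, with 15 higher and 18 lower in skm and a median difference of -0.06 against -0.0034 over all genes. In limma's test over 12393 genes with Benjamini-Hochberg adjustment, 1 of the 33 rose and 0 fell, where 0.0323% of all genes passed, 0.0242% higher and 0.00807% lower. Many genes lay just above the threshold. The clock gene Clock, rank 86 by the size of t, had an adjusted p of 0.0506 in that test, and higher-ranked genes had no larger value. At an unadjusted p under 0.05 there were 9 members, 6 higher and 3 lower (27.3%), beside 23.5% of all genes, 10.6% higher and 13.0% lower. The prefixes did not overlap in 22 members (66.7%), 10 higher and 12 lower, beside 54.4% of all genes, 25.8% higher and 28.6% lower. Of the 24 members whose mean reached the median gene's 7.86, 18 did not overlap (75.0%), beside 63.7% of all genes that did. Of the same 24, 9 had an unadjusted p under 0.05 in limma's test (37.5%), 6 higher and 3 lower, beside 28.2%. The shares at an unadjusted p and without overlap were above those of all genes, with no test of the gaps. Members lay on both sides of 0. The median SD over the 4 samples was 0.21 for the members and 0.19 for all genes, and 2 members, Slc25a25 and Slc25a42, had a range over 1, which 5.98% of all genes had. In 4 members 1 sample stood apart from the other 3 by Dixon's ratio, beside 4.21% of all genes.

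**Figure D1:**
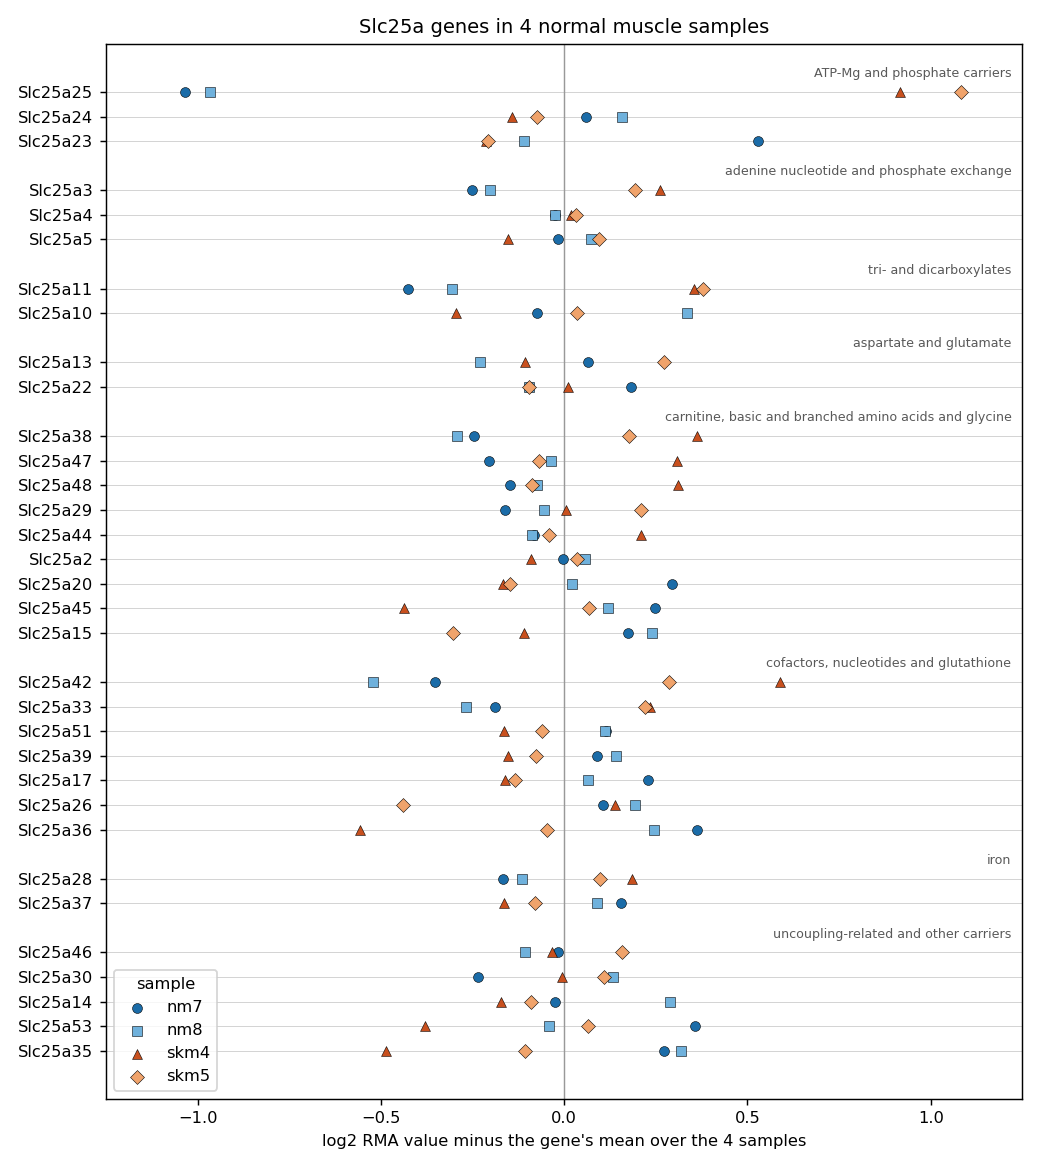
Each row is a gene and each symbol a sample, placed at its log2 RMA value minus the gene's mean over the 4 samples. Genes are in the role groups assigned here. Slc25a25 stands apart, with both nm samples near -1 and both skm samples near 1, while most other genes lie within 0.5 of their mean.

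The ATP-Mg and phosphate carriers, which move adenine nucleotides in or out of the matrix in answer to cytosolic calcium, split between the prefixes. Slc25a25 read 7.62 and 7.69 in nm7 and nm8, and 9.57 and 9.74 in skm4 and skm5. Both skm samples were far above both nm samples, with a smallest gap of 1.88 between the prefixes against gaps of 0.07 and 0.17 within them. It rose 4.0-fold (2.0 ± 0.13 SE, limma, adjusted p = 0.047), with the second highest moderated t of all genes and an SD of 1.16 that ranked 26 of 12393. The gene has 1 probe set here, so no other probe set bears on the value. Leaving out a sample kept the difference between 1.92 and 2.08, but the adjusted p was 0.176 without nm7, 0.136 when nm8 was dropped, 0.083 when skm4 was, and 0.0497 when skm5 was. In those fits the lone sample of a prefix is assumed to vary like the others.

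The paralogues of Slc25a25 lay the other way and did not pass. Slc25a24 read 5.16, 5.26, 4.96 and 5.03 in nm7, nm8, skm4 and skm5, a difference of -0.22 ± 0.12 (adjusted p = 0.335). Slc25a23 read 7.84, 7.21, 7.10 and 7.11 in the same order, and its difference of -0.42 ± 0.22 (adjusted p = 0.321) rested on nm7, since without it the difference was -0.10. Within each array, Slc25a25 minus Slc25a24 was 2.46, 2.43, 4.62 and 4.71, so that the ratio of the pair moved by 2.22 between the prefixes. Against Slc25a23 the ratio moved by 2.42, from -0.22 and 0.48 in nm to 2.47 and 2.63 in skm. An exact 2-sided permutation test of 2 arrays against 2 cannot go below p = 0.333, the value of both pairs, and over the 5 pairs compared the adjusted p was 0.416.

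Clock genes are given beside Slc25a25 because earlier results of these data showed both moving between the prefixes, so their values are no independent support. Arntl, the activator of the clock, read 8.54, 8.46, 6.65 and 6.76 and fell by 1.79 (SE 0.12, limma, adjusted p = 0.047), and its repressor Per3 read 7.57, 7.56, 9.28 and 9.19 and rose by 1.67 (SE 0.12, adjusted p = 0.047). Of the 15 listed clock genes, 14 did not overlap between the prefixes, 10 higher and 4 lower in skm, beside 54.4% of all genes (25.8% higher and 28.6% lower), and 2 passed the test, beside 0.0323%. The labels give no time of collection, and the part of the clock genes' shift in the value of Slc25a25 was not tested.

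The exchange of adenine nucleotides and phosphate, the last step of energy supply from the matrix, held 3 members. Slc25a3, the phosphate carrier that feeds ATP synthase, read 13.01 and 13.06 in the nm samples and 13.53 and 13.46 in the skm samples. Both skm samples lay above both nm samples by at least 0.40, and the difference of 0.45 ± 0.12 (1.37-fold) missed the threshold (limma, adjusted p = 0.107). Slc25a4, the ADP/ATP translocase of heart and skeletal muscle, read 14.38, 14.38, 14.43 and 14.44. Its SD of 0.03 was lower than that of all but 0.718% of genes, but the arrays reached no higher than 14.76, so differences this bright can be compressed. The other translocase, Slc25a5, which is common in dividing and non-muscle cells, read 12.06, 12.15, 11.92 and 12.17, with prefixes that overlapped and a difference of -0.06 ± 0.14. The ratio of Slc25a4 to Slc25a5 moved by 0.11 (exact p = 0.667), and its sign turned without skm4. Slc25a5 stood on a probe set of the type prone to cross-hybridization. With that type dropped, the difference of Slc25a5 was -0.34 (limma, adjusted p = 0.166), and no ratio is given for that setting. Of the 16 genes of ATP synthase and mitochondrial creatine kinase, 0 passed at a median of 0.11, and the highest t belonged to Atp5b and Atp5g1, subunits of ATP synthase, at 0.48 ± 0.12 and 0.45 ± 0.12 (adjusted p = 0.098 and 0.109).

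Among carriers of carboxylates, Slc25a11, which exchanges malate for oxoglutarate in the malate-aspartate shuttle, read 11.28 and 11.40 in the nm samples and 12.06 and 12.08 in the skm samples. The skm samples differed by 0.02 from each other and lay at least 0.66 above the nm samples. Its difference of 0.73 ± 0.12 (1.66-fold) had an adjusted p of 0.061. Slc25a10, the dicarboxylate carrier, overlapped at 8.34, 8.75, 8.12 and 8.45. The shuttle's other carrier, which exchanges aspartate for glutamate, is encoded by Slc25a12 and Slc25a13, of which Slc25a12, the form typical of muscle, was not analysed here. Slc25a13 overlapped at 6.28, 5.98, 6.11 and 6.49 (0.17 ± 0.18). Slc25a22, a glutamate carrier, read 9.32, 9.04, 9.14 and 9.04.

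Of the shuttle's enzymes, Got1, the cytosolic aspartate aminotransferase, read 11.34, 11.21, 12.02 and 12.16 (0.81 ± 0.13, adjusted p = 0.061), and Got2, its mitochondrial form, 12.26, 12.28, 13.01 and 12.92 (0.70 ± 0.12, adjusted p = 0.063). Of the 6 genes of the malate-aspartate and glycerol phosphate shuttles, 0 passed and the median was 0.23. Without overlap, 4 lay higher and 1 lower, beside 63.7% of genes whose mean reached 7.86, as all 6 did. The lower one was Gpd2, the mitochondrial enzyme of the glycerol phosphate shuttle, at 10.55, 10.53, 9.79 and 9.97. Gpd2 is outside the rule for named genes and was singled out after its value was seen.

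**Figure D2:**
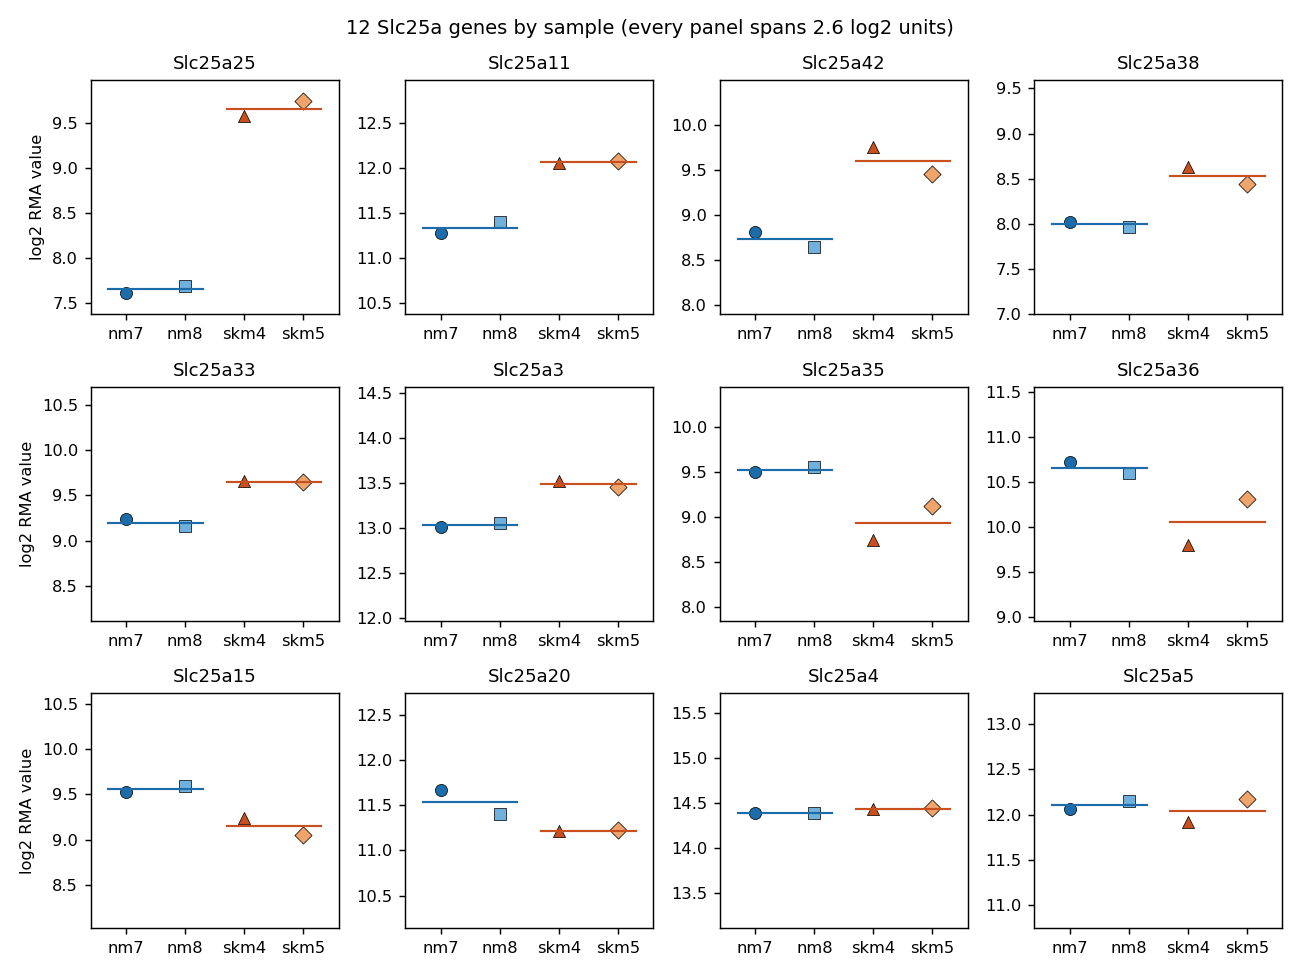
Log2 RMA values of 12 Slc25a genes in each sample, with a line at the mean of each prefix (2 samples each) and the same span of the vertical axis in every panel. Slc25a25 differs by 2.0 between prefix means, Slc25a42 by 0.87 and Slc25a11 by 0.73, while Slc25a4 and Slc25a5 differ by 0.05 and -0.06.

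Carriers of carnitine esters, amino acids and glycine were grouped here with relatives, 9 members in number. The grouping was made for this report and does not state the substrate of each member. Of the 9, 0 passed, and 3 lay higher and 3 lower in skm without overlap (66.7%), beside 54.4% of all genes. Slc25a38, which brings glycine into mitochondria for haem synthesis, read 8.02 and 7.97 in the nm samples and 8.62 and 8.44 in the skm samples (0.54 ± 0.13, 1.45-fold, adjusted p = 0.094). Alas2, the erythroid enzyme that joins that glycine to succinyl-CoA, read 8.28, 8.10, 8.77 and 9.79, and it made up most of the erythroid sum given above. Its part in the difference of Slc25a38 was not tested.

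Slc25a20, the carnitine-acylcarnitine carrier of fatty acid oxidation, read 11.67, 11.40, 11.21 and 11.23 (-0.32 ± 0.14, adjusted p = 0.253), and its other probe set gave -0.26. Without nm7 its difference was -0.18. Its partners in the carnitine pathway had 0 of 5 past the test and a median of 0.04. Crat, which makes and splits short acylcarnitines, read 11.20, 11.25, 11.80 and 11.67 (0.51 ± 0.12, adjusted p = 0.095), the opposite side to Slc25a20.

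Slc25a15, the ornithine carrier, read 9.53, 9.59, 9.24 and 9.05, with both skm samples below both nm samples and a difference of -0.41 ± 0.13 (adjusted p = 0.144). The gene's other probe set, at a mean of 5.33, gave 0.15, and the mean of both gave -0.13. Slc25a29, a carrier of basic amino acids, read 8.72, 8.82, 8.88 and 9.09 (0.21 ± 0.13, adjusted p = 0.391) on its brightest probe set, and that difference was 0.11 without skm5. All 5 of its probe sets were higher in skm, and their mean gave 0.50 (adjusted p = 0.086). One of the 5 read 6.90, 7.05, 7.94 and 8.23 and passed a fit over all probe sets, an alternative chosen after seeing the data (1.11 ± 0.16, adjusted p = 0.0486).

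The 5 other members of this group were Slc25a44, which carries branched-chain amino acids, and Slc25a2, Slc25a45, Slc25a47 and Slc25a48. Slc25a44 read 8.40, 8.39, 8.69 and 8.44, and Slc25a48 6.06, 6.13, 6.52 and 6.12, both highest in skm4. Slc25a47 also was highest in skm4, at 8.61, and Slc25a45 lowest there, at 7.16. Slc25a2, another ornithine carrier, read 4.14 to 4.28, close to the control probe sets of a bacterial transcript, TrpnX, at 3.40 to 4.05, so a difference in it would not be measured.

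Among the carriers of cofactors, nucleotides and glutathione, differences ran from -0.61 to 0.87 and 0 of 7 passed. The prefixes did not overlap in 6 of the 7, 2 higher and 4 lower, beside 54.4% of all genes and 63.7% of genes whose mean reached 7.86, as all 7 did. Slc25a42, which brings coenzyme A into the matrix, read 8.81 and 8.64 in the nm samples and 9.75 and 9.45 in the skm samples. The skm samples lay at least 0.64 above the nm samples, and the difference of 0.87 ± 0.16 (1.83-fold) had an adjusted p of 0.064. Slc25a17, a peroxisomal carrier of coenzyme A and related cofactors, lay the other way at 8.42, 8.25, 8.03 and 8.05 (-0.29 ± 0.12).

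The pyrimidine nucleotide carriers Slc25a33 and Slc25a36, both with an E-box in the windows shown above, lay on opposite sides. Slc25a33 read 9.24, 9.16, 9.66 and 9.65 (0.46 ± 0.12, adjusted p = 0.106), and Slc25a36 10.72, 10.60, 9.80 and 10.31 (-0.61 ± 0.19, adjusted p = 0.150). Without skm4 the difference of Slc25a36 was -0.35. Both of its probe sets were lower in skm, at -0.61 and, for the dimmer, -0.84. The ratio of the pair moved by 1.06 without overlap, from -1.48 and -1.45 in nm to -0.14 and -0.67 in skm, at the smallest p that the exact permutation test allows.

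Slc25a39, the glutathione carrier, read 12.52, 12.58, 12.28 and 12.36 (-0.23 ± 0.12), and Slc25a51, which brings NAD into mitochondria, 11.33, 11.33, 11.05 and 11.15 (-0.23 ± 0.12). All 3 probe sets of Slc25a51 were lower in skm. For Slc25a39, 2 of 3 were, and the third, the only one not of the type prone to cross-hybridization, was higher by 0.15. Slc25a26, which carries S-adenosylmethionine, read 9.07, 9.16, 9.10 and 8.52, with skm5 alone low.

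Both mitoferrins, which bring iron into mitochondria, separated the prefixes in opposite directions without passing. Slc25a28, the broadly expressed form, read 9.49, 9.54, 9.84 and 9.76 (0.28 ± 0.12, adjusted p = 0.228). Slc25a37, the form of erythroid precursors, read 8.94, 8.87, 8.62 and 8.70 (-0.25 ± 0.12, adjusted p = 0.284). The ratio of Slc25a28 to Slc25a37 moved by 0.53 without overlap.

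**Figure D3:**
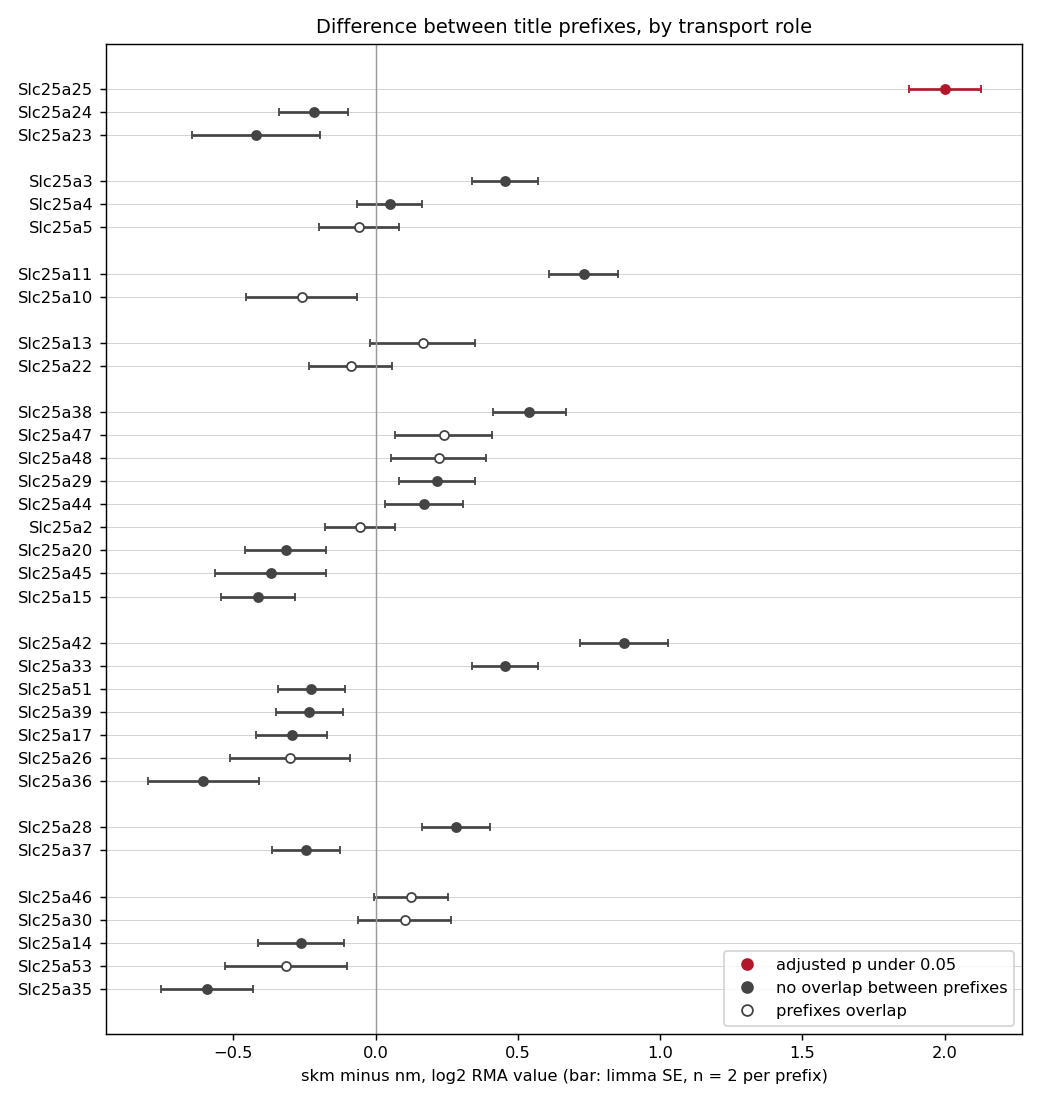
Difference of skm minus nm for each of the 33 genes on the log2 scale, with limma's SE (2 samples per prefix), in the same role groups as the plot of centred values. Slc25a25 at 2.0 is the only member past an adjusted p of 0.05 (red), 22 members have prefixes that do not overlap (filled), and the others range from -0.61 to 0.87.

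The uncoupling-related carriers and those with other or unknown substrates held 5 members, of which 0 passed and 2 lay lower in skm without overlap (40.0%), beside 54.4% of all genes in either direction and 28.6% lower. Slc25a35, whose substrate is not known, read 9.50 and 9.55 in the nm samples and 8.74 and 9.12 in the skm samples (-0.59 ± 0.16, adjusted p = 0.116). Both skm samples were below both nm samples, and they differed by 0.38 from each other. Slc25a14, Slc25a30 and Slc25a53 had differences of -0.26, 0.10 and -0.31. Slc25a46, a protein of the outer membrane that acts on the shape of mitochondria, gave 0.12 and 0.09 on its 2 probe sets.

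Of relatives that do not bear an Slc25a symbol, 4 were measured and 0 passed. Mtch1, an outer membrane relative of the carriers, read 10.07, 9.92, 10.39 and 10.49 (0.44 ± 0.13, adjusted p = 0.125), and Ucp3, the uncoupling protein of skeletal muscle, 8.39, 8.15, 8.92 and 8.54 (0.46 ± 0.18, adjusted p = 0.200). The prefixes did not overlap in 3 of the 4 (75%), all higher in skm. Of all genes 54.4% did not overlap, and of those whose mean reached 7.86, as all 4 did, 63.7%. Ucp1, also counted among the brown fat markers, overlapped at 10.80, 11.24, 11.14 and 11.29 (0.19 ± 0.18). It is outside the rule for named genes.

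Carriers are imported through the TOM70 receptor and the TIM22 translocase. In that list, 0 of 8 passed and the median was 0.06. Timm10b, a small chaperone of the TIM22 complex, read 10.38, 10.44, 10.87 and 11.07 (0.56 ± 0.13, adjusted p = 0.091), and Timm29, a subunit of it, 10.15, 10.08, 10.70 and 10.55 (0.51 ± 0.12, adjusted p = 0.097). Tomm70a, the receptor itself, lay the other way at 9.96, 9.95, 9.40 and 9.66 (-0.42 ± 0.14, adjusted p = 0.152), and was singled out after its value was seen. Over the 58 partner genes of 9 lists, 0 passed limma's test and 13 had an unadjusted p under 0.05 (22.4%), beside 23.5% of all genes. Of the 58, 43 were higher in skm (74.1%), beside 49.5% of all genes. In 53 of the 58 the mean reached 7.86, and among all genes that did, these shares were 28.2% and 44.9%. The median difference of the partner genes was 0.11, against -0.06 for the carriers and -0.0034 for all genes, with no test of that gap. The other lists were the outer membrane pores and pyruvate carrier, with Mpc1 at 0.27 ± 0.12 and Vdac3 at 0.25 ± 0.12, mitochondrial calcium uptake, with Letm1 at 0.31 ± 0.13 and Smdt1 at 0.08 ± 0.15, iron-sulfur cluster and haem synthesis, with Alas1 at 0.22 ± 0.12 and Nfs1 at 0.19 ± 0.13, and regulators of mitochondrial genes. Among the last, Gabpa, a transcription factor of respiratory genes, was at -0.41 ± 0.14 and Esrra, a nuclear receptor of the same genes, at 0.31 ± 0.16. Ppargc1a, the coactivator of mitochondrial biogenesis, read 9.55, 9.40, 9.35 and 9.34 (-0.13 ± 0.12, adjusted p = 0.580), lower in both skm samples by less than the spread within nm, and was singled out after its value was seen.

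Where a gene had several probe sets, they did not always give the same direction. Of the 33 genes, 15 had more than 1 probe set, and their differences had 1 sign in Slc25a20, Slc25a29, Slc25a36, Slc25a46 and Slc25a51. In Slc25a10 the brighter probe set gave -0.26 and the dimmer 0.42, and in Slc25a17 they gave -0.29 and 0.17. The 8 probe sets of Slc25a5 ran from -0.34 to 0.11, and the 4 of Slc25a4 from -0.03 to 0.13. For the genes with 1 probe set, among them Slc25a3, Slc25a11, Slc25a25 and Slc25a42, no such comparison could be made.

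**Figure D4:**
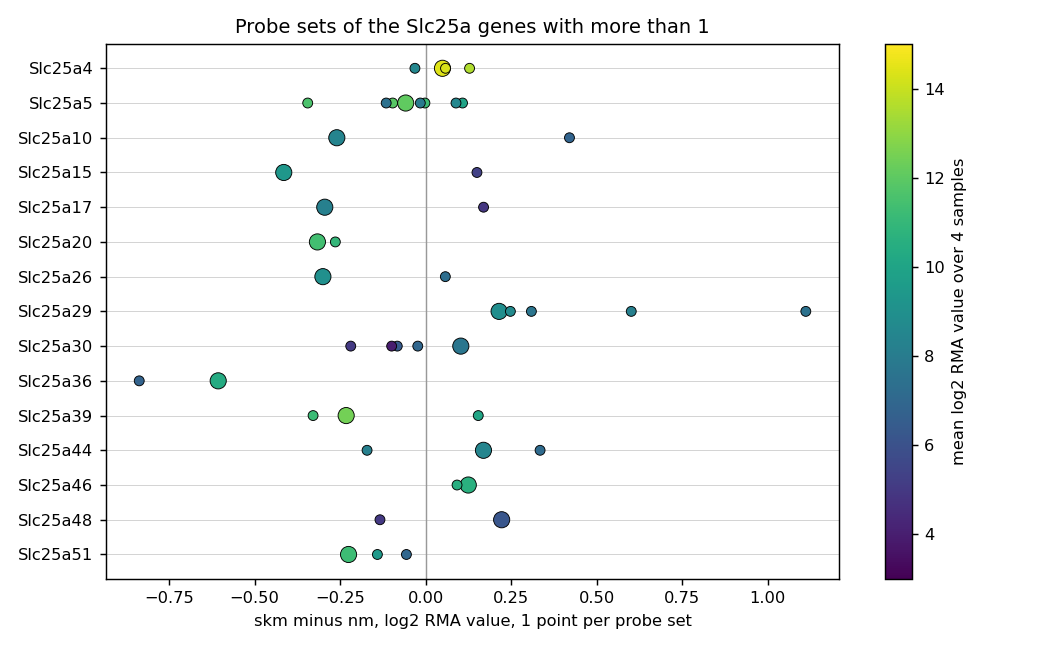
Difference of skm minus nm for every probe set of the 15 genes with several, on the log2 scale, with the mean level as colour and the probe set that stands for the gene drawn larger. The 5 probe sets of Slc25a29 all lie above 0, up to 1.11, and those of Slc25a10 lie on both sides of it.

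Across samples, the 33 carriers shared no common order. After each gene was set to a mean of 0, the members' medians by array were -0.02, -0.02, -0.09 and 0.03. Sample skm4 was the lowest for 15 of 33 members, a larger share than the 26.6% of all genes. For skm5 it was 2 of 33, a smaller share than the 25.0% of all genes. Each array was the highest for 7 to 9 members, beside 20.6% to 29.3% of all genes, and no test was made of these counts. The slow fibre markers, whose fibres are rich in mitochondria, had centred medians of 0.29, -0.28, 0.41 and -0.42 in the same order, and the part of fibre type in the carriers' values was not tested.

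**Figure D5:**
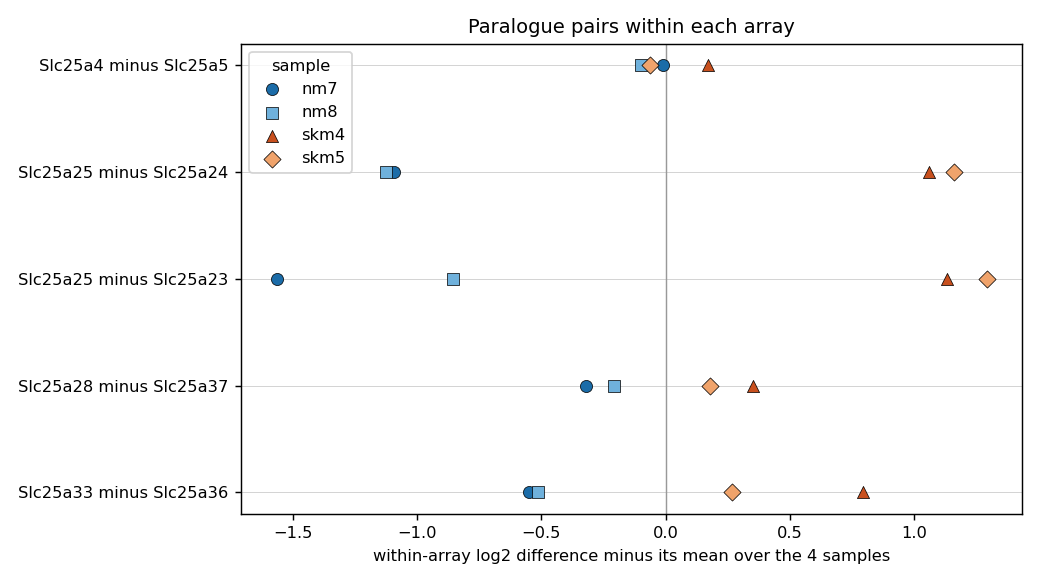
Within-array log2 difference of 5 paralogue pairs, each centred on its mean over the 4 samples, with 1 symbol per sample. Both pairs with Slc25a25 set the prefixes apart by over 2, Slc25a33 minus Slc25a36 by 1.06 and Slc25a28 minus Slc25a37 by 0.53, and Slc25a4 minus Slc25a5 overlaps.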

How the data were processed

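RNA of 4 normal muscle samples was measured on 1-colour Affymetrix arrays. The authors deposited 1 log2 value for each probe set and array, made by RMA with Expression Console 1.1 according to the submitters' processing notes. That the scale is log2 follows from the range of the values. RMA brings arrays to 1 distribution and compresses differences near the background and the brightest values. Which other arrays entered the same RMA run is not stated. Of 22690 probe sets, 64 controls were left out, and the annotation named 1 gene for 20380, several for 691 and none for 1555. Of the genes' symbols, 29 were not in the GRCm38.p6 gene table, which was used for names only and added 0 members. The probe set with the highest mean stood for a gene, with no filter on dim genes.

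The skm minus nm difference was fitted by lmFit and eBayes of limma 3.58.1 under R 4.3.3 (2-sided, Benjamini-Hochberg over 12393 genes, threshold 0.05). The fit had 2 residual and 3.51 prior degrees of freedom. Errors are SEs of that fit with n = 2 per prefix. A check on simulated data covered the estimated size of planted differences and not which genes pass. The number of arrays limits the precision. Named members were those past the threshold, the 8 highest and 8 lowest by moderated t, the 6 with the largest SD, those with an outlying sample and 8 measured carriers always named. Up to 2 genes by t were named from each partner list, and other members are given by group. Members and lists were chosen with earlier results of these data known. Alternatives were quantile normalization, median centring, keeping only genes whose mean reached the median, averaging a gene's probe sets, dropping cross-hybridizing ones (names ending in _x_at or _s_at), each sample left out, an intensity trend, updated symbols and, added after seeing the data, probe sets in place of genes. Protein sequences were not used here.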

Additional observations from a re-analysis of the deposited data

Results flagged for a closer look

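In 4 of the 33 members, 1 sample stood apart from the other 3 by Dixon's ratio at its 95% critical value, where chance flags about 1 in 20 genes and 4.21% of all genes were so marked. Slc25a23 read 7.84 in nm7 against 7.10 to 7.21 in the others. Slc25a26 read 8.52 in skm5 against 9.07 to 9.16. Slc25a44 read 8.69 in skm4 against 8.39 to 8.44, and Slc25a48 read 6.52 in skm4 against 6.06 to 6.13. For Slc25a26 the other probe set read 7.40 in skm5 against 7.22 to 7.33, so the low value was seen on 1 of its 2 probe sets.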

How the results depend on the processing

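Slc25a25 passed under each setting that kept all 4 samples, with a difference of 2.0 to 2.03 and an adjusted p of 0.0022 to 0.048, and its call was lost without nm7, nm8 or skm4. The number of members past the threshold was 7 of 24 with the filter on dim genes (6 higher, 1 lower, beside 16.6% of genes), 6 of 33 with an intensity trend (5 higher, 1 lower, beside 8.96%), 2 among probe sets, and 0 to 1 with a sample left out. With 0 members called by limma, 6 to 9 had an unadjusted p under 0.05. Slc25a3, Slc25a11, Slc25a33, Slc25a35 and Slc25a42 passed under both of the first settings, and Slc25a38 under the filter. Over all genes the count of 4 became 186 with quantile normalization, 1026 with the filter, 92 with the mean of probe sets, 142 without cross-hybridizing probe sets, 1110 with the trend, 308 among probe sets and 0 to 15 with a sample left out (15 without skm5, 0 by limma without nm7, nm8 or skm4, where 1889 to 2346 genes had an unadjusted p under 0.05). In the main setting many genes lay just above the threshold of 0.05, among them Clock, Per2 and Lep, each with an adjusted p of 0.0506 by limma. The count of 4 therefore depends on small changes in the adjusted p. What moved it in each setting was not tested. The members' median difference of -0.06 was -0.0044 with the filter, -0.0023 without cross-hybridizing probe sets and -0.0838 to 0.0090 with a sample left out. Their median SD of 0.214 became 0.202 when probe sets were averaged and 0.196 to 0.218 with a sample left out. The sign turned for Slc25a4 with quantile normalization (-0.0285), for Slc25a26 (0.0578) and Slc25a39 (0.15) without cross-hybridizing probe sets, and with a sample left out for Slc25a5 (-0.18 to 0.0654) and for its ratio with Slc25a4 (-0.0094 to 0.22). Of the values of named members, 232 kept their direction and their side of the threshold and 11 passed it newly, and of the ratios 24 kept their direction. No paired analysis was possible because the titles of the prefixes share no number. Signal over background limits Slc25a2, the 1 member within 0.5 of the TrpnX probe sets.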
